A study of Mus musculus with 8 samples.

Results

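Matricellular proteins are secreted into the extracellular matrix, where they act on cell surface receptors and growth factors more than as structural fibres. The genes examined here were the thrombospondins THBS1, THBS2, THBS3 and THBS4, the SPARC family proteins SPARC and SPARCL1, and the fasciclin domain proteins POSTN (periostin) and TGFBI (transforming growth factor beta induced), as they are spelled in the count table, and they are written below as mouse symbols. They were chosen by name, and they and the gene lists used below were chosen with earlier results of these data known. All 8 were found among the 13937 genes of the table, and all 8 passed the filter on low counts that left 13509 genes for testing. Bulk RNA was sequenced from primary brain astrocytes of C57BL/6 mice at postnatal day 1, either WT or RGC-32 KO (KO below), the latter lacking Response Gene to Complement 32, a mediator of TGF-β signaling encoded by Rgcc. In each genotype the cells were left untreated (control) or received TGF-β at 10 ng/ml for 24 h, after overnight serum starvation, with 2 biological replicates in each of the 4 groups. Meninges had been removed, the cells had grown for 2 weeks in medium with serum, and neurons and oligodendrocyte precursors had been shaken off, so every group is a culture and not tissue. How many pups contributed to a replicate is not given in the sources used here.

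Astrocytes are a source of several of these proteins in the brain. Thbs1 and Thbs2, which form trimers, are secreted by immature astrocytes and promote synapse formation through the calcium channel subunit α2δ-1, whereas Thbs3 and Thbs4 form pentamers. Sparcl1, also called hevin, promotes the formation of excitatory synapses, and Sparc opposes that action. Periostin and Tgfbi bind integrins and collagen, and Thbs1 is also known as an activator of latent TGF-β. Genes of this class are textbook targets of TGF-β in fibroblasts and other cells that make matrix.

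The 8 libraries held 14920561 to 18956038 counts on genes, with a median of 15857266. Rgcc had 80, 94, 215 and 362 counts in the WT libraries and 26, 28, 61 and 64 in the KO libraries, so each KO library was below each WT library and none was at 0. Levels are given as CPM, counts scaled to the TMM-normalized size of the library, and levels of different genes are compared only as FPKM, which is scaled to transcript length. Of the astrocyte markers, 10 of 10 were in the table, and Gfap, the intermediate filament of astrocytes, averaged 534 FPKM in WT controls. The cultures also held marker transcripts of other cell types. Microglial markers (10 of 10 in the table) summed to between 993 and 1375 CPM in the 8 libraries, markers of meningeal fibroblasts (11 of 12) to between 748 and 1216 CPM, and markers of mural cells (5 of 8) to between 179 and 455 CPM. Endothelial markers (6 of 8) summed to at most 127 CPM, neuronal markers (4 of 9) to at most 138 CPM and markers of the oligodendrocyte lineage (7 of 8) to at most 364 CPM. In such bulk samples, fewer cells of a type and less RNA per cell cannot be told apart.

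Per transcript length, the 8 genes spanned a wide range of levels. The FPKM values may have been adjusted between libraries of the same replicate number before deposit, since for 547 genes all replicate 1 libraries share a single non-zero value and for 535 genes all replicate 2 libraries do, so SDs and separations in FPKM may not show the full spread between replicates. Thbs2 after TGF-β in WT astrocytes, for example, had 160 and 157 FPKM and, in the same libraries, 1217 and 1366 CPM. Sparc was far above the others, with 1770 ± 41.6 FPKM in WT controls (SD, n = 2), and over all 8 libraries it took 0.658% of all counts, the highest share of any gene in the count table. Its FPKM ranked 8 among the 18644 genes of the FPKM table. Thbs1 followed with 241 ± 21.0 FPKM in WT controls. Below it came Sparcl1 at 59.5 ± 3.79 FPKM, Thbs2 at 53.4 ± 2.29, Tgfbi at 31.3 ± 2.59, Postn at 16.8 ± 4.54 and Thbs3 at 10.8 ± 1.24. In the WT controls none of these 7 genes overlapped its neighbour in the order, the closest being Sparcl1, at 56.8 and 62.1 FPKM, and Thbs2, at 51.7 and 55.0 FPKM. The same order of means held in the KO controls, where Thbs2 (36.4 and 40.4 FPKM) overlapped Tgfbi (36.8 and 35.2 FPKM) and Postn (10.1 and 14.4 FPKM) overlapped Thbs3 (10.3 and 10.9 FPKM). Thbs4 was at the edge of detection, with 0 and 7 counts in the WT controls and 0 and 4 counts in the KO controls, and a count of 0 allows up to 3 counts.

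**Figure D1:**
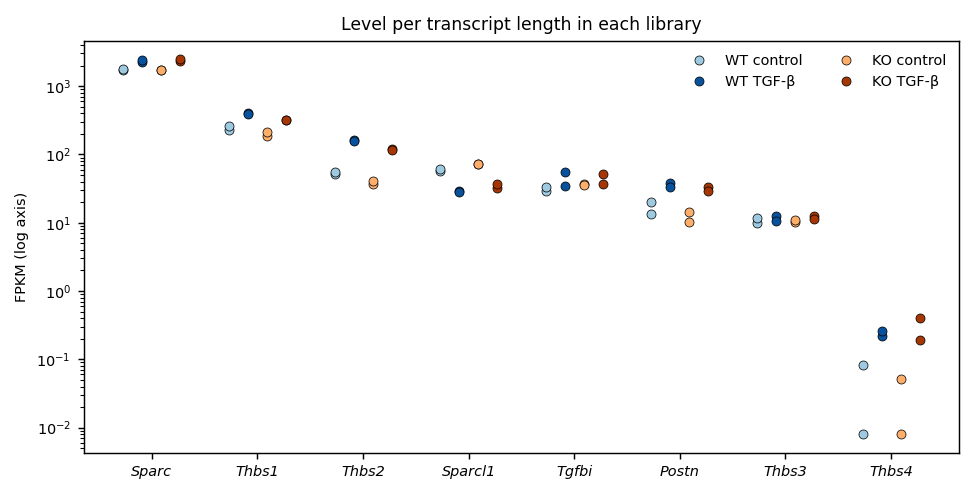
Level per transcript length of the 8 genes, as FPKM on a log axis. Each point is 1 of the 8 libraries, coloured by group, with 2 points for each gene and group. Sparc is highest and Thbs4 lowest in every library, and the points of Sparcl1 in TGF-β libraries lie below those of its controls.

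With TGF-β the order changed in the middle of this range. In WT astrocytes Thbs2 moved from the fourth to the third place, at 158 ± 2.01 FPKM, and Sparcl1 from the third to the sixth, at 28.5 ± 0.388 FPKM. In KO astrocytes Thbs2 also took the third place, at 118 ± 3.64 FPKM, and Sparcl1 the fifth, at 34.7 ± 2.96 FPKM. There the libraries of Sparcl1 (32.6 and 36.8 FPKM) overlapped those of Postn (33.1 and 29.3 FPKM), so the order of these 2 genes is not resolved. After TGF-β in WT astrocytes, Tgfbi (55.7 and 34.1 FPKM) and Postn (38.7 and 32.9 FPKM) likewise overlapped.

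The first question was how these genes responded to TGF-β in WT astrocytes. Thbs1, Thbs2 and Postn were up-regulated and Sparcl1 was down-regulated past the threshold, which in edgeR's quasi-likelihood test was a log2 fold change of 0.6 or more in either direction and an adjusted p under 0.05. That is 3 of 8 higher and 1 of 8 lower, where 7.72% of all genes tested were called higher and 5.65% lower. The median log2 fold change of the 8 genes was 0.77, against -0.0048 over all genes tested. In KO astrocytes 5 of 8 were up-regulated (Thbs1, Thbs2, Thbs4, Sparc and Postn) and again Sparcl1 was down-regulated, against 6.61% and 4.93% of all genes. Their median was 0.74, against 0.0031 over all genes. With upper quartile normalization the calls over all genes leaned the other way, 857 higher and 1055 lower against 1043 and 763 in WT and 747 and 895 against 893 and 666 in KO astrocytes, while no direction of the 8 genes changed. In both genotypes, the TGF-β libraries lay above the controls without overlap for 7 of the 8 genes and below them for Sparcl1. Such separation was common with 2 libraries a group, since 35.4% of all genes lay higher and 33.7% lower without overlap in WT astrocytes, and 34.3% and 32.9% in KO astrocytes. All 11 genes of a list of TGF-β targets, among them Smad7 and Skil, were called higher in both genotypes. Their median log2 fold changes were 1.31 in WT and 1.20 in KO astrocytes. The list was chosen with earlier results of these data known, so its calls are no independent test. Ccn2, Tgfb1 and Ltbp2 belong to this list and are counted again in lists below.

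**Figure D2:**
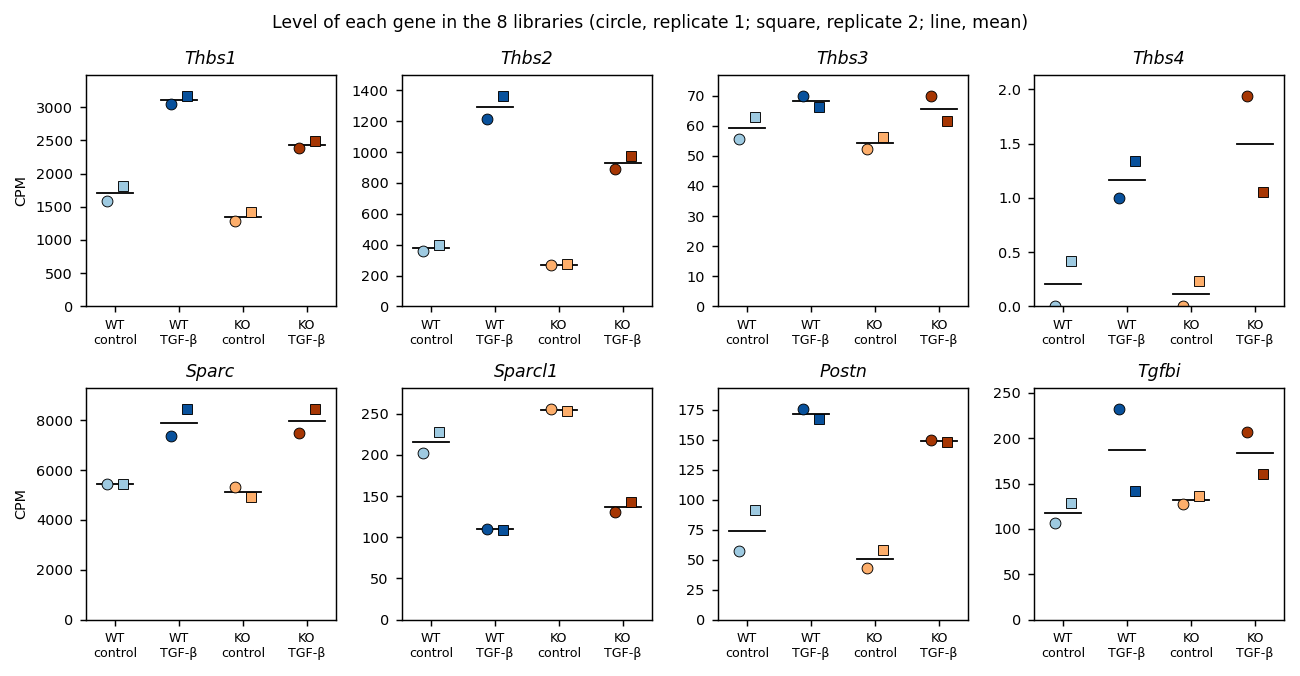
CPM of each gene in the 8 libraries, on axes that start at 0. Circles are replicate 1, squares are replicate 2, and lines are the mean of a group. Thbs2 rises from 362 and 398 CPM to 1217 and 1366 CPM in WT astrocytes, Sparcl1 falls, and Tgfbi shows replicates that lie far apart after TGF-β.

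Thbs2 (ENSMUSG00000023885.9, on the minus strand at chr17:14665500-14694235 in GRCm38) showed the strongest response for its spread. It stood at 362 and 398 CPM in the WT controls and at 1217 and 1366 CPM after TGF-β. In KO astrocytes it stood at 265 and 274 CPM in the controls and at 887 and 978 CPM after TGF-β. Every TGF-β library thus lay above every control library of either genotype. The log2 fold change was 1.76 in WT (SE 0.09, 95% interval 1.55 to 1.97, adjusted p = 6.19e-05, edgeR), a 3.40-fold rise. It was 1.79 in KO astrocytes (SE 0.09, 1.58 to 2.00, adjusted p = 7.28e-05, edgeR).

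Thbs1 (ENSMUSG00000040152.8, plus strand, chr2:118111876-118127133) rose by a smaller factor from a higher level. Its libraries held 1593 and 1813 CPM in WT controls, 3040 and 3173 CPM in WT TGF-β, 1283 and 1419 CPM in KO controls and 2378 and 2487 CPM in KO TGF-β. The groups did not overlap within either genotype. The change was 1.82-fold in WT astrocytes (log2 fold change 0.87, SE 0.10, adjusted p = 0.000662, edgeR) and 1.80-fold in KO astrocytes (0.85, SE 0.10, adjusted p = 0.000887). Of its exon bases, 3.42% are shared with Gm29233, a long noncoding RNA on the other strand, and reads of the 2 genes cannot be separated in unstranded data.

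Since Thbs2 rose more than Thbs1, the make-up of the thrombospondin transcripts shifted in every TGF-β library. The summed FPKM of the 4 thrombospondins was 288 and 323 in the WT controls and 581 and 553 after TGF-β, and 232 and 263 in the KO controls against 455 and 442. Thbs1 made up between 78.6% and 80.5% of that sum in the 4 control libraries and between 69.6% and 71.3% in the 4 TGF-β libraries, with Thbs2 as most of the remainder. The ratio of Thbs1 to Thbs2 in FPKM was 4.52 ± 0.199 in WT controls and 2.50 ± 0.0721 in WT TGF-β, and 5.17 ± 0.105 and 2.70 ± 0.0424 in KO astrocytes. Taken from the raw counts, which need no scaling between libraries, the ratio ran from 4.40 to 5.19 in the 4 controls and from 2.32 to 2.68 in the 4 TGF-β libraries.

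Thbs3 (ENSMUSG00000028047.11, plus strand, chr3:89215180-89226837) was expressed at a low and nearly even level. It had 55.5 and 62.8 CPM in WT controls, 70.0 and 66.4 CPM in WT TGF-β, 52.4 and 56.4 CPM in KO controls, and 70.0 and 61.4 CPM in KO TGF-β. These groups stood apart by a few CPM, and in FPKM the WT groups overlapped. The log2 fold change was 0.20 in WT (adjusted p = 0.112, edgeR) and 0.27 in KO astrocytes (adjusted p = 0.0546), with 95% intervals of 0.0007 to 0.41 and of 0.07 to 0.48, both under 0.6. Its exons share 6.59% of their bases with Mtx1 on the opposite strand.

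Thbs4 (ENSMUSG00000021702.7, minus strand, chr13:92751590-92794818) had 18 and 21 counts in the WT TGF-β libraries and 29 and 16 in the KO TGF-β libraries, against the control counts of 0 to 7 given above. Each TGF-β library therefore exceeded each control library, in a range where a few reads decide the fold. The log2 fold change was 2.38 in WT astrocytes (SE 0.88, adjusted p = 0.0724, edgeR), which did not pass, and 3.53 in KO astrocytes (SE 0.96, adjusted p = 0.0286), which did. The intervals, 0.34 to 4.42 and 1.32 to 5.74, overlapped over most of their length. The call in KO astrocytes was lost when any 1 of its 4 libraries was left out (log2 fold change 2.61 to 7.59, adjusted p 0.0517 to 0.135), and a call was gained in WT astrocytes without WT control replicate 2 (7.22, adjusted p = 0.0344, over all omissions 0.0344 to 0.225).

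Among the SPARC family, both genes changed in opposite directions. Sparc (ENSMUSG00000018593.13, minus strand, chr11:55394500-55423183), a collagen-binding glycoprotein, had 5426 and 5445 CPM in WT controls and 7354 and 8443 CPM in WT TGF-β. In KO astrocytes it had 5342 and 4903 CPM in controls and 7501 and 8454 CPM after TGF-β. The libraries separated by treatment in both genotypes. The log2 fold change of 0.54 in WT (SE 0.11, 95% interval 0.28 to 0.80, adjusted p = 0.0092, edgeR) passed the adjusted p and not the fold limit, and the 0.64 in KO astrocytes (SE 0.11, 0.38 to 0.90, adjusted p = 0.00553) passed both. Because Sparc lay so near that limit, its call moved with single libraries. Without KO TGF-β replicate 2 the value was 0.53 (adjusted p = 0.0535) and without KO control replicate 2 it was 0.58, whereas without WT TGF-β replicate 1 the WT value was 0.64 and was called.

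Sparcl1 (ENSMUSG00000029309.7, minus strand, chr5:104079111-104113733) was the gene of the 8 that fell. It had 203 and 228 CPM in WT controls and 110 and 109 CPM in WT TGF-β, 256 and 253 CPM in KO controls and 130 and 143 CPM in KO TGF-β. Control and TGF-β libraries were widely separated in both genotypes. It was 1.96-fold lower in WT (log2 fold change -0.97, SE 0.07, adjusted p = 0.000176, edgeR) and 1.86-fold lower in KO astrocytes (-0.90, SE 0.07, adjusted p = 0.000279). The summed astrocyte markers moved the same way, from 4620 to 4847 CPM in WT controls to 3585 to 3705 CPM in WT TGF-β, and from 5342 to 6005 CPM to 4384 to 4716 CPM in KO astrocytes. The median log2 fold change of those 10 markers was -0.39 in WT and -0.40 in KO astrocytes. In each, 2 of 10 (Slc1a2 and Glul) were called lower, against 5.65% and 4.93% of all genes. Gfap, the largest part of the sum, had -0.36 and -0.25 and was not called. Gja1 went the other way, at 0.35 and 0.33, under the fold limit, and S100b had -0.14 and 0.08. The part of the shift in astrocyte markers in the fall of Sparcl1 was not tested.

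The ratio of Sparc to Sparcl1 in FPKM joined both changes. It was 30.7 and 29.0 in the WT controls, 78.6 and 85.7 in WT TGF-β, 23.9 and 23.6 in the KO controls, and 70.7 and 66.6 in KO TGF-β. All 4 groups were separate from each other, with the KO libraries below the WT libraries of the same treatment. Taken from the raw counts instead, the ratio ran from 19.4 to 26.8 in the controls and from 57.6 to 77.4 after TGF-β.

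Of the fasciclin domain genes, Postn (ENSMUSG00000027750.16, plus strand, chr3:54361109-54391037) had 56.8 and 91.0 CPM in WT controls and 176 and 167 CPM in WT TGF-β. In KO astrocytes it had 43.3 and 57.7 CPM in controls and 149 and 148 CPM after TGF-β. The TGF-β libraries were tight and above all controls, while replicate 1 was the lower library in both control groups. Postn rose 2.32-fold in WT (log2 fold change 1.21, SE 0.20, adjusted p = 0.0037, edgeR) and 2.94-fold in KO astrocytes (1.56, SE 0.21, adjusted p = 0.00177).

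Tgfbi (ENSMUSG00000035493.10, plus strand, chr13:56609523-56639562) takes its name from its induction by TGF-β in other cells. It had 106 and 129 CPM in WT controls, 232 and 142 CPM in WT TGF-β, 128 and 137 CPM in KO controls, and 207 and 161 CPM in KO TGF-β. Replicate 1 was the higher library in both TGF-β groups, and the second WT TGF-β library was only just above the higher WT control. The log2 fold change was 0.67 in WT (SE 0.22, adjusted p = 0.05002, edgeR) and 0.47 in KO astrocytes (SE 0.22, adjusted p = 0.145), and neither passed. In WT astrocytes 1 library decided the value, which was 0.97 without WT TGF-β replicate 2 (adjusted p = 0.0098) and 0.28 without WT TGF-β replicate 1 (0.251). Microglial markers, whose cells also express Tgfbi, summed to 1343 CPM in WT TGF-β replicate 1 and 993 CPM in replicate 2, the same order as Tgfbi. In KO TGF-β they summed to 1037 and 1148 CPM, the opposite order. In the controls they summed to 1375 and 1117 CPM in WT and to 1305 and 1201 CPM in KO astrocytes, also opposite to Tgfbi. The part of microglia in the spread of Tgfbi was not tested.

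**Figure D3:**
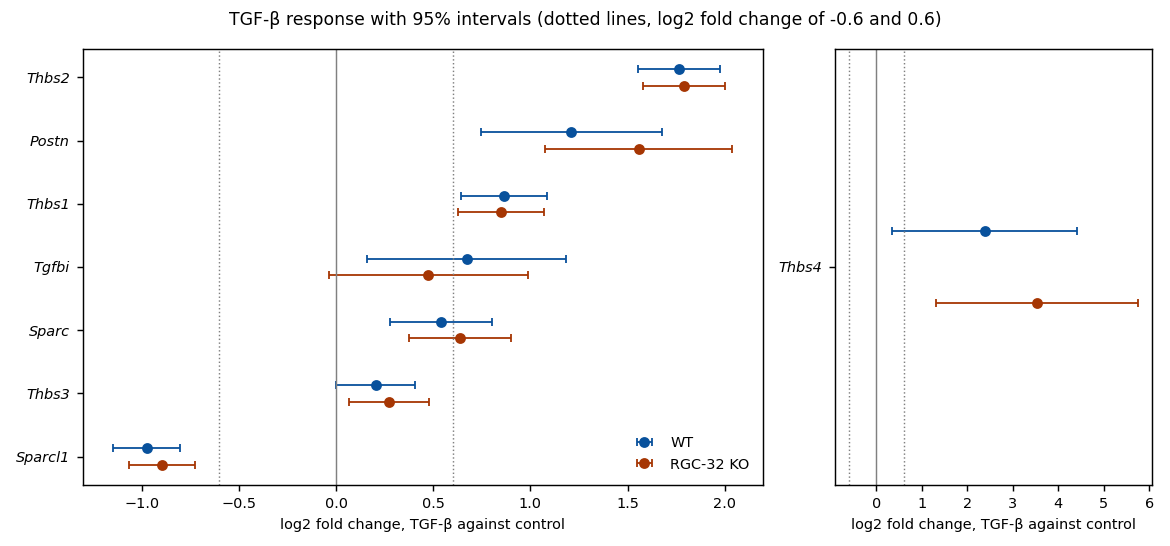
Log2 fold change of each gene after TGF-β in WT (blue) and KO (brown) astrocytes, with 95% intervals from edgeR and dotted lines at the fold limit of 0.6. Thbs4 has its own axis because its intervals are wide. The points of both genotypes lie close together for Thbs2, Thbs1 and Sparcl1, and the intervals of Tgfbi and Sparc cross the limit.

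The promoters of Thbs2, Thbs4, Sparc and Postn are shown because these genes were called higher after TGF-β in at least 1 genotype. RefSeq windows of 300 bases, from 250 bases before to 50 after the annotated start in GRCm38.p6, were matched for 6 of the 8 genes, and not for Thbs1 and Sparcl1. Capitals mark matches on either strand to the SMAD binding element CAGAC, the AP-1 site TGANTCA, the TATA box TATAAA, the GC box GGGCGG and the TEAD site GGAATG, and the palindrome GTCTAGAC was searched as well. The Thbs2 window is chr17:14694213-14694512 (minus strand), that of Thbs4 chr13:92794769-92795068 (minus strand), that of Sparc chr11:55420031-55420330 (minus strand, 3103 bases inside the first start in GENCODE), and that of Postn chr3:54360857-54361156 (plus strand).
Thbs2: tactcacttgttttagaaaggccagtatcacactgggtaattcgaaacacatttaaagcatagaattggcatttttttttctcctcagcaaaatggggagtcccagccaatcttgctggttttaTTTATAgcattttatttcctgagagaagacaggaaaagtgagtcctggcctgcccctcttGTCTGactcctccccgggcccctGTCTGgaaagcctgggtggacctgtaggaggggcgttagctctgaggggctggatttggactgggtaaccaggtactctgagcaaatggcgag
Thbs4: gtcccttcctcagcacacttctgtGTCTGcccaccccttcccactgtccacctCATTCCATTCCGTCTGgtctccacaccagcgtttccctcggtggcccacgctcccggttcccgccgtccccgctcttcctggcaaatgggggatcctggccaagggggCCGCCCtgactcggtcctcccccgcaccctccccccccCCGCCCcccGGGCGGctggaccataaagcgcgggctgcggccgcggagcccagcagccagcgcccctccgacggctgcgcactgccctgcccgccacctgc
Sparc: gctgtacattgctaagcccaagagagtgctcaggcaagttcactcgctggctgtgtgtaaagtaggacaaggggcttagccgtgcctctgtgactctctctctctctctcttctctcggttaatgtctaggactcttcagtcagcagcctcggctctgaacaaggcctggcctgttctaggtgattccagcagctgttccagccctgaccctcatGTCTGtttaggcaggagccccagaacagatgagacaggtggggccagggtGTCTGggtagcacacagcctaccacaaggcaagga
Postn: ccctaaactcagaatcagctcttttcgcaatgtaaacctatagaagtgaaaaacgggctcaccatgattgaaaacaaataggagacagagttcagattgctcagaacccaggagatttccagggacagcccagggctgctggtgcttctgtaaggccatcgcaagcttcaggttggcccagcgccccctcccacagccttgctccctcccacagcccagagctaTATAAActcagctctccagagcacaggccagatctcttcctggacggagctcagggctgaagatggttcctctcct
The windows of Thbs2, Thbs4 and Sparc each held CAGAC at 2 places, and so did that of Tgfbi, while those of Postn shown here and of Thbs3 held none. A second RefSeq start of Postn, with the window chr3:54359017-54359316, had CAGAC at 1 place. CAGAC is short and occurs in 49.6% of the 32851 RefSeq windows of this length. The Postn window held TATAAA on its own strand and that of Thbs2 on the opposite strand, against 13.6% of all windows. The Thbs4 window held 3 GC boxes (35.7% of all windows hold at least 1) and 2 overlapping TEAD matches (14.7%). No window of the 6 genes held the palindrome (0.213% of all) or the AP-1 site (7.81%), which says only that these letters are not there.

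The second question was whether the 2 genotypes differed. Without TGF-β, 0 of the 8 genes passed the threshold between WT and KO astrocytes in edgeR or DESeq2, where 0.037% of all genes did in edgeR, and an unadjusted p under 0.05 was found for 4 of the 8 and for 924 of the 13509 genes tested. Thbs1, Thbs2 and Sparc lay higher in both WT libraries than in both KO libraries (17.4% of all genes did) and Sparcl1 lower (15.5%). With TGF-β again 0 of 8 passed in edgeR or DESeq2, against 0.0444% of all genes in edgeR, with an unadjusted p under 0.05 for 3 of 8 and for 1576 of all 13509 genes. Thbs1, Thbs2 and Postn lay higher in WT without overlap (22.4% of all genes) and Sparcl1 lower (23.9%).

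Thbs2 had the smallest p of the 8 genes in both comparisons. Its log2 difference, WT minus KO, was 0.50 in controls (SE 0.09, 95% interval 0.29 to 0.70, adjusted p = 0.263, edgeR) and 0.47 with TGF-β (SE 0.09, 0.27 to 0.67, adjusted p = 0.131), or 1.41-fold and 1.38-fold. In DESeq2 these differences had adjusted p-values of 0.00101 and 0.00104, over the alternatives 0.00101 to 1 and 0.00104 to 1, and stayed under the fold limit. Thbs1 differed by 0.33 in controls (0.11 to 0.55, adjusted p = 0.572, edgeR) and by 0.35 with TGF-β (0.13 to 0.57, adjusted p = 0.237), where DESeq2 gave 0.0301 (over the alternatives 0.0301 to 1). Sparcl1 differed the other way, by -0.24 in controls (-0.41 to -0.07, adjusted p = 0.599, edgeR) and by -0.32 with TGF-β (-0.49 to -0.15, adjusted p = 0.194).

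Postn differed by 0.55 in controls (95% interval 0.07 to 1.03, adjusted p = 0.691, edgeR), with overlapping libraries, and by 0.21 with TGF-β (-0.25 to 0.66, adjusted p = 0.736). For Sparc the differences were 0.09 and -0.01, with intervals of -0.17 to 0.35 and -0.27 to 0.25, so that a difference as large as 0.6 lay outside both. The same holds for Thbs3, at 0.12 (-0.09 to 0.33) and 0.05 (-0.15 to 0.26). Tgfbi, at -0.17 (-0.68 to 0.34) and 0.03 (-0.48 to 0.53), and Thbs4, at 0.78 (-2.46 to 4.03) and -0.37 (-1.79 to 1.05), were measured less precisely.

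Marker sums also differed between the genotypes. Fibroblast markers summed to 1049 and 1216 CPM in WT controls and to 932 and 926 CPM in KO controls, the same order as Thbs1 and Thbs2, and to 774 and 855 against 805 and 748 CPM with TGF-β, where they overlapped. Astrocyte markers were lower in WT than in KO libraries under both treatments, the same order as Sparcl1. The part of either in these differences was not tested. From control to TGF-β the fibroblast markers fell in sum in both genotypes, while Thbs1, Thbs2 and Postn rose. Members of the fibroblast list were mixed. Crabp2 rose by 2.35 on the log2 scale in WT (SE 0.62) and 2.23 in KO astrocytes (SE 0.64). Aldh1a2 rose by 1.04 and 0.86, whereas Dcn and Ogn were called lower in WT astrocytes. The mural markers rose in sum, from 210 and 212 to 407 and 455 CPM in WT and from 179 and 184 to 341 and 361 CPM in KO astrocytes, through Pdgfrb, Anpep and Notch3, which were called higher in both genotypes. Vtn went the other way, with a value of -0.64 in WT that was not called, and fell by 1.39 in KO astrocytes, and Rgs5 averaged 0.847 FPKM in WT controls and 0.831 FPKM in WT TGF-β. The remaining mural markers Kcnj8, Abcc9 and Higd1b were not found in the count table, so the sum does not include them.

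**Figure D4:**
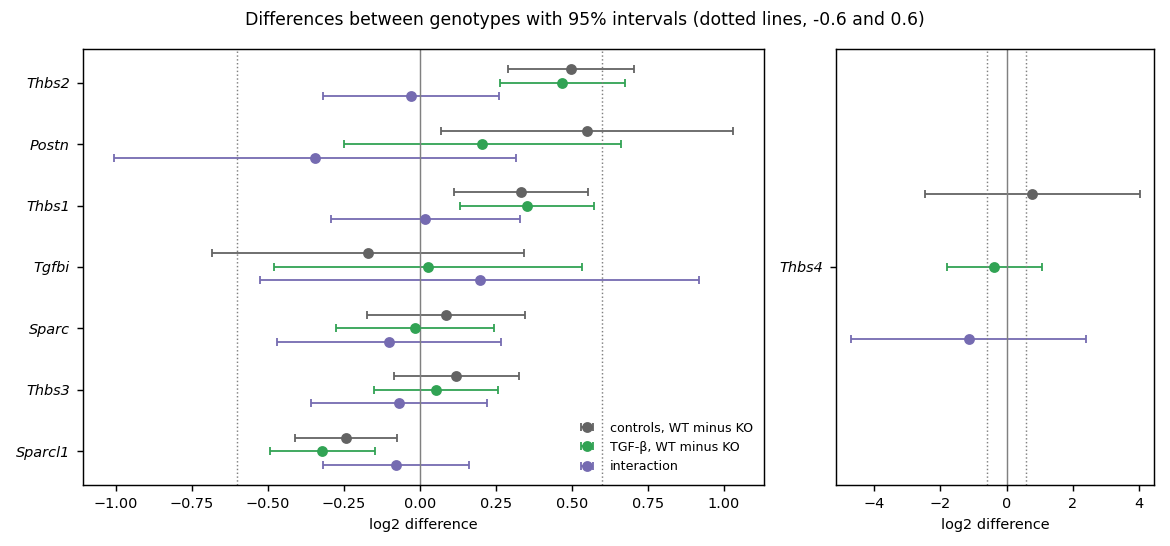
Differences between genotypes for each gene on the log2 scale, WT minus KO, in controls (grey) and with TGF-β (green), and the interaction (purple), which is the TGF-β response in WT minus that in KO astrocytes. Bars are 95% intervals from edgeR and dotted lines mark -0.6 and 0.6. Thbs2 and Thbs1 lie to the right of 0 and Sparcl1 to the left under both treatments, and every interaction interval includes 0.

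The third question was whether RGC-32 changed the response to TGF-β itself, which the interaction of genotype and treatment tests. No gene of the 13509 passed (0%), with 381 at an unadjusted p under 0.05 in edgeR, 368 in limma-voom and 76 in DESeq2, and with 0 of the 8 genes among them in edgeR. For Thbs2 the interaction was -0.03 on the log2 scale (95% interval -0.32 to 0.26), for Thbs1 0.02 (-0.29 to 0.33) and for Sparcl1 -0.08 (-0.32 to 0.16). Intervals for Sparc, -0.10 (-0.47 to 0.27), and Thbs3, -0.07 (-0.36 to 0.22), also exclude a difference of 0.6 in either direction. Those of Postn, -0.35 (-1.01 to 0.32), Tgfbi, 0.20 (-0.52 to 0.92), and Thbs4, -1.15 (-4.71 to 2.41), do not. The calls of Thbs4 and Sparc in KO astrocytes alone are therefore not shown to differ from the WT response, with adjusted p = 1.00 for both interactions in edgeR.

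Genes with the most similar profiles were sought among all genes tested, as the smallest root mean square difference of log2 CPM over the 8 libraries, each gene centred on its own mean. Sparc had the closest neighbours, Sh3gl1 (0.036), Ssr3 (0.043) and Tmed3 (0.046), the latter 2 being genes of the secretory pathway. For Sparcl1 they were the antioxidant enzyme Prdx6 (0.052), Arhgef4 (0.062) and Carmil3 (0.074), and for Thbs1 they were Zbtb38 (0.068), Arhgef5 (0.078) and Akap13 (0.084). Thbs2 was most like the metalloprotease Adam12 (0.109), the mechanosensitive channel Piezo2 (0.122) and Tmeff1 (0.124). Adam12 rose by 1.67 on the log2 scale in WT and 1.66 in KO astrocytes. Postn was most like the basement membrane collagen Col4a3 (0.153), Sec16b (0.166) and Ptgfrn (0.167). Thbs4 had the most distant neighbours, Gm10684 (0.213), the protease inhibitor Timp1 (0.333) and tenascin C, Tnc (0.371). With 0 and 7 counts in the WT controls and 0 and 4 in the KO controls, its profile rests on few reads, and so do these neighbours.

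Receptors and binding partners of these proteins were examined next. Of 15 such genes, 7 were called higher and 0 lower in WT astrocytes, against 7.72% and 5.65% of all genes. In KO astrocytes 6 were called higher and 0 lower, against 6.61% and 4.93% of all genes. The median log2 fold changes of the list were 0.58 in WT and 0.54 in KO astrocytes. Itgb3 and Itgav form an integrin that binds thrombospondins, periostin and Tgfbi. Itgb3 rose by 2.11 on the log2 scale in WT and 2.05 in KO astrocytes, and Itgav by 0.90 and 0.81. Itga5, the fibronectin receptor subunit, rose by 1.85 and 1.81, and Itgb5, a further partner of Itgav, by 0.89 and 0.77. Cacna2d1, which encodes α2δ-1, rose by 0.91 (SE 0.08, adjusted p = 0.000249, edgeR) and 0.83 (SE 0.08, adjusted p = 0.00044), from 26.8 to 50.2 CPM in the mean of WT libraries. The endocytic receptor Lrp1, which takes up thrombospondins, rose by 1.12 in WT and 0.62 in KO astrocytes, and with TGF-β it was 0.61 higher in WT (adjusted p = 0.0933, edgeR), which did not pass. Itgb1 changed by 0.64 in WT, a call, and by 0.59 in KO astrocytes, just under the fold limit. Calr, the chaperone calreticulin that can act as a surface partner of Thbs1, changed by 0.58 and 0.54, under the limit, and was the most abundant of the list at 452 FPKM over all libraries. Other receptors did not rise. Cd36 had values of -0.83 in WT (adjusted p = 0.0501, edgeR) and -0.65 in KO astrocytes (adjusted p = 0.115), and was not called. Itga4 had -0.54 and -0.49, and Cd47 was nearly even at 0.12 and 0.15, also without a call.

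Of 8 relatives by domain or family, 6 were tested. Of these, 4 were called higher in WT astrocytes (7.72% of all genes) and 2 in KO astrocytes (6.61%). None was called lower (5.65% and 4.93% of all genes). Fstl1, a secreted protein with a follistatin-like domain, rose by 1.30 and 1.33 on the log2 scale, and Smoc2, a SPARC-related matrix protein, by 0.93 and 0.99. The proteoglycans Spock2 and Spock3 were called in WT astrocytes alone, at 0.63 and 0.69. Their KO values were 0.28 and 0.51, with no interaction past the threshold. Spock3 was higher in WT than in KO astrocytes, by 0.87 in controls (SE 0.24, adjusted p = 0.547, edgeR). With TGF-β it was higher by 1.05 (SE 0.23, adjusted p = 0.179, edgeR), and neither difference passed. Spock2 differed the other way, by -0.66 in controls and -0.31 with TGF-β, also without a call. Smoc1, a close relative of Smoc2, changed by -0.94 and -0.82 without passing (adjusted p = 0.126 and 0.189, edgeR).

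The other matricellular genes mostly rose as well. In WT astrocytes 6 of 10 were called higher and 1 lower, against 7.72% and 5.65% of all genes. In KO astrocytes 6 were called higher and 0 lower, against 6.61% and 4.93% of all genes. Ccn4 showed the largest rise of this list, by 3.07 and 2.94 on the log2 scale (SE 0.41 in each). Tnc rose by 2.20 and 2.15 (SE 0.57 in each), with controls far apart. These held 4043 and 11714 counts in WT and 3237 and 10827 counts in KO astrocytes. The TGF-β target Ccn2, also known as connective tissue growth factor, rose by 1.75 and 1.87 (SE 0.15 in each). Fbln5, an elastic fibre protein, rose by 1.22 and 1.38, and Ccn1 by 0.64 and 0.67. Tnr was called in WT alone (1.09, against 0.51) and Ccn5 in KO astrocytes alone (0.81, against 0.50). Ccn3 fell in WT astrocytes by 1.20 and had a value of -0.59 in KO astrocytes. Of 8 genes for TGF-β ligands and their latency proteins, the same 4 were called higher in WT and in KO astrocytes, against 7.72% and 6.61% of all genes. They were Tgfb1 (1.18 and 1.11), Ltbp1 (1.82 and 1.52), Ltbp2 (2.15 and 2.09) and Ltbp3 (0.86 and 0.76). None was called lower (5.65% and 4.93% of all genes). The ligands Tgfb2 (-0.40 and -0.36) and Tgfb3 (-0.39 and -0.34) went down by less than the fold limit, with adjusted p under 0.05 in edgeR. Between genotypes 0 genes of these lists were called in any comparison in edgeR. Of all genes, 0.037% were called in controls, 0.0444% with TGF-β and 0% in the interaction.

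**Figure D5:**
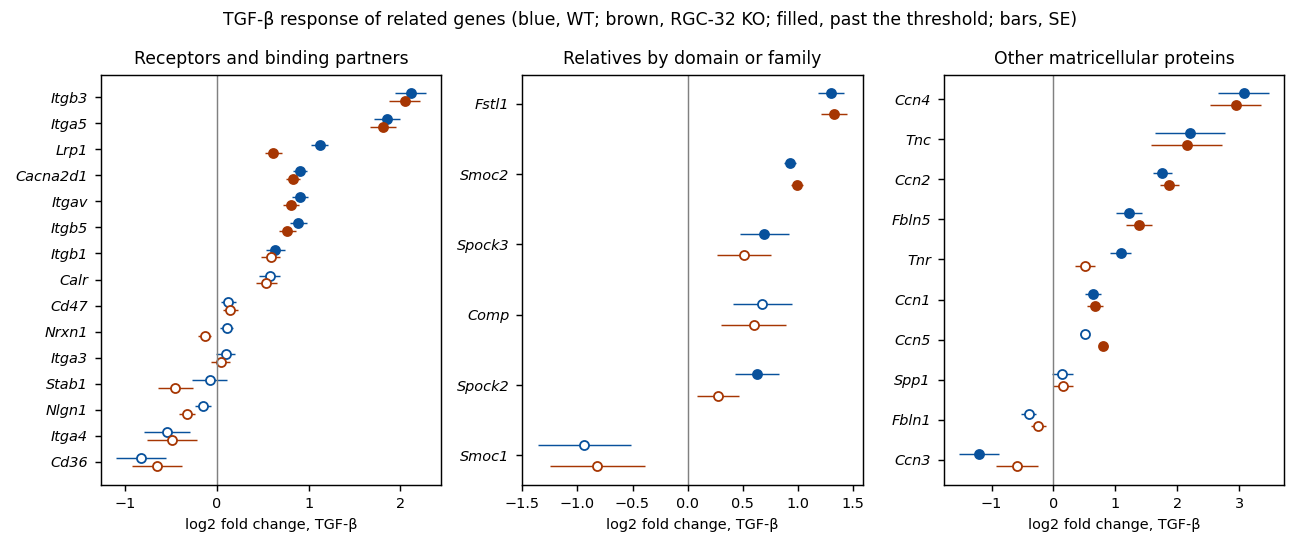
Log2 fold change after TGF-β of receptors and binding partners, of relatives by domain or family and of other matricellular genes, in WT (blue) and KO (brown) astrocytes, with SE bars. Filled points passed the threshold and open points did not. The integrin subunits Itgb3 and Itga5 lead the receptors, Fstl1 the relatives and Ccn4 the other matricellular genes.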

How the data were processed

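RNA was sequenced without strand information from 8 cultures in 4 groups, and each library was mapped to its group and replicate by its label. Alignment was by STAR, run within VIPER, and the authors deposited raw whole-number counts for each gene symbol. They also deposited FPKM values. STAR, Cufflinks and the build mm10 are named in the submitters' processing notes, whereas the annotation and the counting program are not given in the sources used here. In the deposited FPKM table the 4 replicate 1 libraries share a single non-zero value for 547 genes and the 4 replicate 2 libraries for 535 genes, which an adjustment by replicate number could produce, but no such step is given in those sources. Thbs4 is listed there at 0.00806 and 0.0081 FPKM in the control libraries with 0 counts. FPKM was used for levels between genes, ratios and 3 alternatives. The authors' own DESeq2 comparisons, which hold fold changes, p-values, identifiers and ontology terms, were not used.

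Counts were filtered with filterByExpr, scaled by TMM and fitted in R 4.3.3 with edgeR 4.0.16 (quasi-likelihood, a mean for each of 4 groups, 8 libraries). The p-values are two-sided and adjusted by Benjamini-Hochberg over 13509 genes. Calls required a log2 fold change of 0.6 or more up or down, the limit in the study's methods, and an adjusted p under 0.05. SE was derived from the test statistic. Nearest profiles used log2 CPM with a prior count of 2. Alternatives used limma 3.58.1 and DESeq2 1.42.0. The code was tested on simulated data. Total counts per library (14920561 to 18956038) limit the precision of low genes such as Thbs4, and with 2 libraries a group the error rests on the spread shared by all groups.

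Replicate numbers in the labels were checked by correlating deviations from the group means over genes. The correlations were -0.343 between WT control and WT TGF-β, -0.348 between the same treatments in KO, 0.491 between both controls, 0.253 between both TGF-β groups, -0.483 between WT control and KO TGF-β and -0.507 between WT TGF-β and KO control. Same numbers thus deviated oppositely across treatments and were not used as pairs, although all 6 signs are those of numbers crossed between treatments, which the labels do not give and which was tried as an alternative. The members and gene lists were chosen with earlier results of these data known. The text names all 8 members, genes of the lists that were called or among the 3 highest by FPKM of their list, the 3 nearest profiles of each called member, and Rgcc. In the list of TGF-β targets, 1 gene is not reported here. Cd36, Cd47, Itga4, S100b, Rgs5, Tgfb2, Tgfb3 and the mural markers not found in the count table were named after values were seen. Gene positions are from GENCODE M21 (GRCm38) and promoters from RefSeq (GRCm38.p6). Older symbols in the table were matched through RefSeq synonyms.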

Additional observations from a re-analysis of the deposited data

How the results depend on the processing

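Thbs1, Thbs2, Postn and Sparcl1 kept their direction after TGF-β, and their calls, in both genotypes under every alternative but Bonferroni's correction, which left 2 calls in WT and 2 in KO astrocytes (Thbs2 and Sparcl1 in each). Tgfbi in WT astrocytes was called with RLE normalization (adjusted p = 0.0466) and without the filter (0.0494), over the alternatives 0.00415 (crossed replicate numbers) to 1. Sparc in KO astrocytes fell under the fold limit with upper quartile normalization (0.56) and on FPKM (0.47). Thbs4 had a log2 fold change of 0.33 there on FPKM with a pseudocount of 1, and in WT astrocytes it was called on FPKM with a pseudocount of 0.1 (1.28, adjusted p = 0.0322, over the alternatives 0.0322 to 1). That pseudocount moved the median of all genes to -0.13. With at least 10 counts asked of every library, Thbs4 was not tested, and DESeq2 gave it no adjusted p between genotypes.

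No pairing was assumed, and the replicate number as a block (replicate block) gave 4 calls among the 8 genes in WT and 6 in KO astrocytes, 957 higher and 659 lower calls over all genes in WT and 814 and 555 in KO astrocytes, and changed no call of the 8 genes. With the numbers crossed between treatments, an alternative added after the data were seen, there were 6 calls in WT and 6 in KO astrocytes. Those in WT had Tgfbi and Thbs4 added. In the interaction 0 genes passed with the block or the crossed block. An unadjusted p under 0.05 in edgeR was found there for 212 and 680 genes, against 381 without a block. Over all genes, calls between genotypes numbered 1 higher and 4 lower in WT in controls and 3 and 3 with TGF-β. These became 1 and 1, and 1 and 2, with the block, 6 and 4, and 25 and 11, with the crossed block, 7 and 6, and 22 and 12, in DESeq2, and at most 1 and 1 with a library left out. The TGF-β calls over all genes were fewer on FPKM with a pseudocount of 1 (519 and 586 in WT, 462 and 578 in KO astrocytes, or 508 and 566, and 449 and 555, without the filter) and without WT TGF-β replicate 2 (714 and 486), KO control replicate 2 (712 and 388), KO TGF-β replicate 1 (814 and 393) or KO TGF-β replicate 2 (617 and 436). FPKM with a pseudocount of 0.1 gave 776 and 1270 in WT and 710 and 1257 in KO astrocytes.

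Sign changes of the 8 genes arose between genotypes and in the interaction, in values that were not called. With TGF-β, WT minus KO was -0.0088 for Tgfbi in limma-voom, -0.0111 on FPKM with a pseudocount of 1, with or without the filter, and -0.0118 with 0.1, and for Thbs3 -0.0429 and -0.0463. The interaction of Sparcl1 was 0.0073 and 0.0034 on FPKM. When single libraries were left out, WT minus KO in controls ranged from -4.07 to 4.84 for Thbs4. With TGF-β it ranged from -0.028 to 0.14 for Thbs3, from -0.73 to 0.12 for Thbs4, from -0.13 to 0.092 for Sparc and from -0.36 to 0.33 for Tgfbi. The interaction ranged from -0.072 to 0.12 for Thbs1, from -0.12 to 0.070 for Thbs2, from -0.15 to 0.026 for Thbs3, from -5.21 to 3.71 for Thbs4, from -0.21 to 0.013 for Sparc, from -0.16 to 0.011 for Sparcl1, from -0.64 to 0.037 for Postn and from -0.18 to 0.50 for Tgfbi. The cause of these changes was not tested.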
